A study of Culex quinquefasciatus with 12 samples.

Results

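Malate synthase, listed in the study's tables as CPIJ000005, was followed through 18 h of intoxication in the larval midgut of the southern house mosquito, Culex quinquefasciatus. The gene was chosen as every spot whose probe name holds that identifier, which gave 1 of the 19751 genes on the array and 4 of its 43803 gene spots. The gene was selected on its log2 ratios of toxin over untreated on these arrays, so its own values are given as a description and without a test. The array files carry no gene descriptions, and the name malate synthase comes only from the study's table of regulated genes. The reference table used here holds 0 identifiers of this kind, so the pairing of name and identifier was not tested, and no sequence of the gene or its probes is shown.

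Third-instar larvae of the JHB strain, starved for 3 h, were given the Bin toxin of Lysinibacillus sphaericus, a mixture of equal molar amounts of the BinA and BinB proteins, at 80 ng/ml for 6, 12 or 18 h. That dose kills 90% of the larvae, and only those still alive were collected. Each time point was measured on 4 Agilent arrays with 2 colours, with 200 ng of total RNA per channel. The labels state that replicates of 20 larvae were treated and that at least 20 midguts were pooled for each treatment. RNA of untreated larvae of the same time point was always in Cy3 (green) and that of the toxin-treated larvae always in Cy5 (red), so a dye effect particular to a probe adds to every ratio given here. Each exposure time occupies 1 slide of its own, so slide and time cannot be told apart. The labels call the 4 pools of treated larvae biological replicates, whereas the sources used here do not say whether the 4 untreated channels of a time point came from separate pools.

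Malate synthase joins acetyl-CoA and glyoxylate to malate. Together with isocitrate lyase it forms the glyoxylate shunt, which bypasses the carbon-losing steps of the citric acid cycle and lets plants, fungi, bacteria and nematodes turn acetyl-CoA from fat or acetate into sugar precursors. The full shunt is not generally found in animals, although genes for malate synthase are known from several animal groups, and the enzyme is often peroxisomal. No gene named isocitrate lyase was in the lists used here.

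After loess, malate synthase RNA was higher in toxin-treated than in untreated midguts on all 12 arrays, on average most at 6 h and least at 18 h. With the scanner software's own ratio, 18 h replicate 4 was at -0.01. At 6 h the mean log2 ratio of toxin over untreated was 1.51 ± 0.19 (SD, n = 4 arrays), or 2.86-fold. At 12 h it was 1.15 ± 0.28, or 2.22-fold, and by 18 h it stood at 0.47 ± 0.26, or 1.38-fold (n = 4 each). The study's table of regulated genes lists this identifier with the opposite sign, and the reason for the difference was not tested. These are ratios of RNA from whole pooled tissue, in which fewer cells of a type and less RNA per cell cannot be told apart.

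The 4 arrays of 6 h gave log2 ratios of 1.75, 1.58, 1.33 and 1.39 for replicates 1 to 4. The 4 arrays of 12 h gave 1.38, 1.40, 0.96 and 0.85 in the same order. At 18 h the values were 0.56, 0.70, 0.51 and 0.10. The ranges of 6 and 12 h overlapped, with replicates 1 and 2 of 12 h inside the range of 6 h, whereas all 4 values of 18 h lay below every value of the earlier time points after loess. With median centring in place of loess, the arrays of 12 h (0.94 to 2.13) and 18 h (0.28 to 1.16) overlapped, while those of 18 h stayed below those of 6 h (1.26 to 2.18). A log2 ratio of 0.75, the study's threshold of a 1.68-fold change, was reached on 4, 4 and 0 arrays at 6, 12 and 18 h after loess and on 4, 4 and 3 arrays after median centring. After scale normalization it was reached on 4, 1 and 1 arrays, and the ranges of 18 h (0.07 to 2.71) and 6 h (0.83 to 5.58) overlapped. The mean of 18 h was 0.89 with median centring and 0.91 with scale normalization, both past that threshold, the latter with 1 array, replicate 3, at 2.71.

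**Figure D1:**
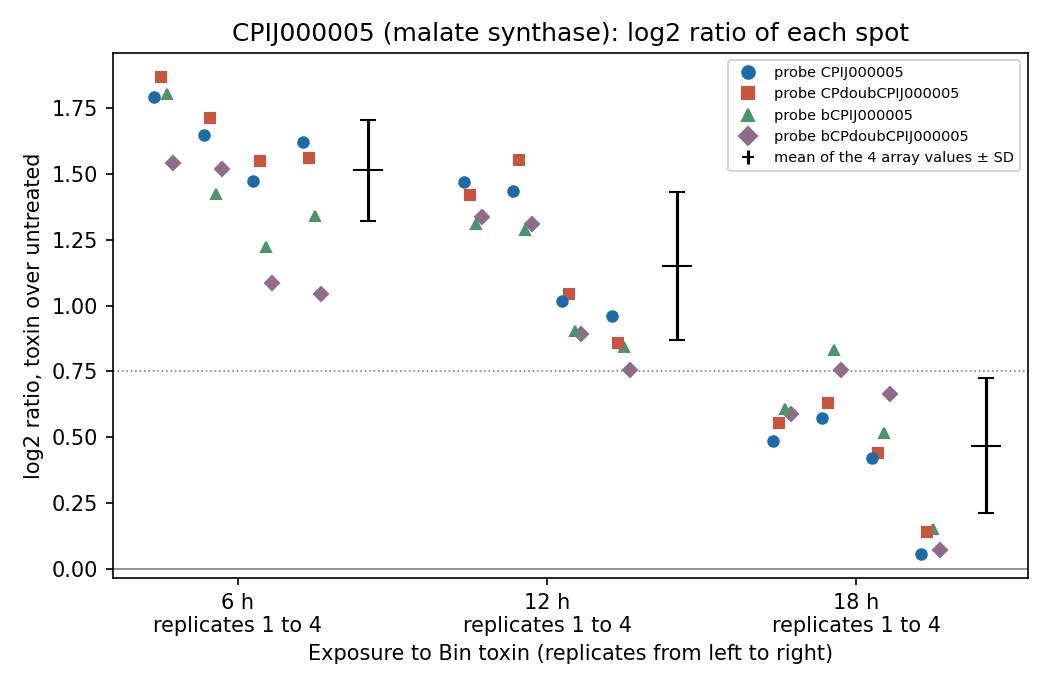
Log2 ratio of toxin over untreated (y axis) for each of the 4 malate synthase spots on each of the 12 arrays, by exposure time and replicate (x axis). Black marks are the mean and SD of the 4 array values of a time point, 1.51 ± 0.19, 1.15 ± 0.28 and 0.47 ± 0.26, the grey line is 0 and the dotted line is 0.75. All 48 points lie above 0, and those of 18 h replicate 4 lie closest to it.

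The rule that chose the gene used these ratios, so its place among the other genes is stated without a test. Malate synthase had rank 56 from the highest mean log2 ratio among the 19751 genes at 6 h, where 0.278% of genes had a higher mean. Its rank was 229 at 12 h and 1124 at 18 h, with 1.15% and 5.69% of genes above it. Under the other background corrections and normalizations the rank of the mean ranged from 51 to 121 at 6 h, from 101 to 531 at 12 h and from 580 to 3152 at 18 h, the last with the scanner software's ratio, where 16% of genes lay above it.

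The mean log2 ratio fell by 0.36 from 6 to 12 h, by 0.68 from 12 to 18 h and by 1.05 over the whole interval, with pooled SDs of 0.24, 0.27 and 0.23 between arrays. The median gene moved by -0.01, 0.01 and 0.00 in the same comparisons. A larger fall than that of malate synthase was seen for 5.99%, 1.71% and 0.739% of genes. After loess the arrays overlapped in the first step and not in the second, and after median centring or scale normalization they overlapped in both. A dye effect that is the same on all slides drops out of these differences.

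Malate synthase is represented by 4 probes, whose names are CPIJ000005, CPdoubCPIJ000005, bCPIJ000005 and bCPdoubCPIJ000005. The sources used here do not explain the prefixes, and 250 genes carry all 4 kinds of name. Probe CPIJ000005 gave mean log2 ratios of 1.63 ± 0.13, 1.22 ± 0.27 and 0.38 ± 0.23 at 6, 12 and 18 h (SD, n = 4). Probe CPdoubCPIJ000005 gave 1.67 ± 0.15, 1.22 ± 0.32 and 0.44 ± 0.22. Probe bCPIJ000005 gave 1.45 ± 0.25, 1.09 ± 0.25 and 0.53 ± 0.28. Probe bCPdoubCPIJ000005 gave 1.30 ± 0.27, 1.07 ± 0.29 and 0.52 ± 0.31. All 4 probes therefore ranked the time points alike. The probes with the prefix b gave lower means than the others at 6 and 12 h and higher means at 18 h, so the fall from 6 to 18 h was 0.78 by probe bCPdoubCPIJ000005 and 1.25 by probe CPIJ000005.

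The signal of these spots was far above its surroundings and below saturation. Over the 48 spots the median green signal was between 3269 and 7214.5 intensity units, against a local background of 16.5 to 25. The median red signal was between 9286 and 31066 units, against a local background of 40 to 56.5. The scanner software marked 48 of 48 spots as well above background, and marked 0 as saturated, as outlying or as lying in an uneven background.

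The levels in the separate channels depend on how arrays are scaled to each other. On the log2 intensity scale, after loess and scaling between arrays (Aquantile), untreated midguts had levels of 12.53 ± 0.05, 12.57 ± 0.06 and 13.11 ± 0.01 after 6, 12 and 18 h (SD, n = 4). Toxin-treated midguts had levels of 14.05 ± 0.21, 13.72 ± 0.24 and 13.57 ± 0.25. From 6 to 18 h the untreated level was thus 0.57 higher and the toxin level 0.47 lower. The untreated level differed by 0.04 between 6 and 12 h and by 0.53 between 12 and 18 h on this scale, and by 0.17 and 0.30 with loess alone. In the scanner's median signals without normalization, an alternative added after seeing the data, it differed by 0.42 between 6 and 12 h and by -0.03 between 12 and 18 h, while the median green signal of all spots was lower at each later time point (7.19, 6.86 and 6.54 in log2). An untreated increase from 6 to 18 h was thus found on all 4 scales tried (0.39 to 0.62), whereas its timing differed between them. The toxin level differed by -0.33 between 6 and 12 h and by -0.15 between 12 and 18 h, with overlapping arrays in both steps.

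**Figure D2:**
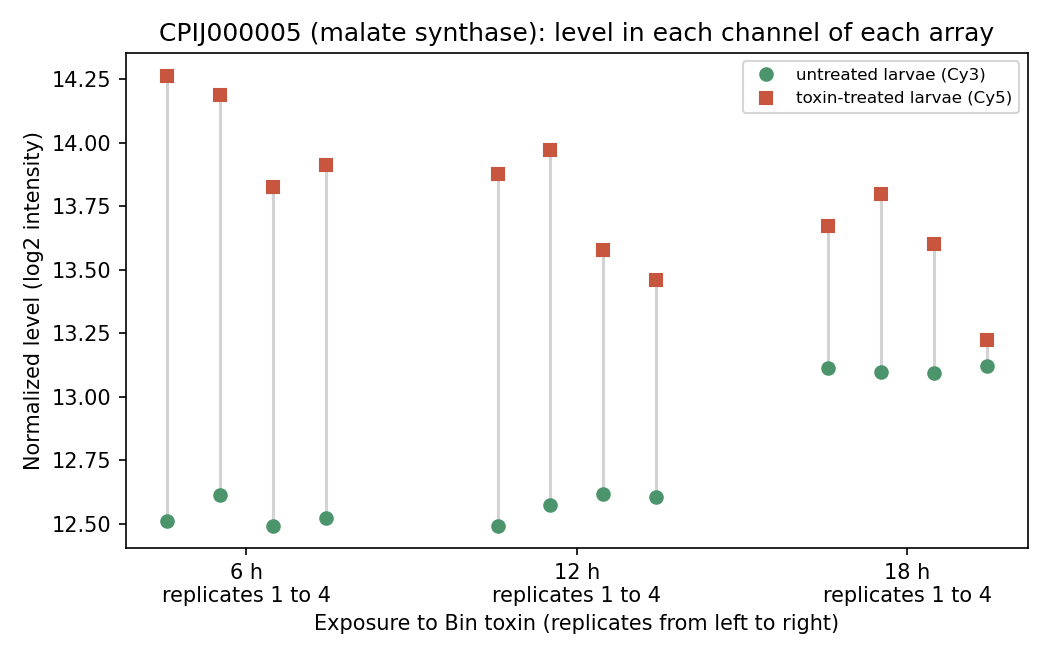
Normalized level of malate synthase (y axis, log2 intensity) in untreated larvae (green circles) and toxin-treated larvae (red squares) on each of the 12 arrays, by exposure time and replicate (x axis). Grey lines join the channels of an array. The untreated level stays between 12.49 and 12.62 at 6 and 12 h and between 13.09 and 13.12 at 18 h, and every toxin level is above every untreated level.

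On this scale the levels in order from low to high were those of untreated larvae at 6, 12 and 18 h and then of toxin-treated larvae at 18, 12 and 6 h. Untreated 6 h (12.49 to 12.61) and untreated 12 h (12.49 to 12.62) did not differ beyond their spread. Untreated 18 h (13.09 to 13.12) lay above both and below the lowest toxin level. The toxin levels of 18 h (13.22 to 13.80), 12 h (13.46 to 13.97) and 6 h (13.82 to 14.27) each overlapped with the next, whereas those of 18 and 6 h did not overlap on this scale and did with loess alone. The untreated channels varied less than the toxin channels in most genes: the median SD over the 19751 genes was 0.0647, 0.0636 and 0.0561 in untreated and 0.104, 0.0988 and 0.101 in toxin-treated midguts at 6, 12 and 18 h, and the SD was larger with toxin in 71.3%, 69.9% and 75.2% of genes.

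The untreated increase from 12 to 18 h on the Aquantile scale exceeded that of 97.3% of genes, and the median gene differed by 0.00. With loess alone, without scaling between arrays, the untreated level differed by 0.47 and the toxin level by -0.57 between 18 and 6 h.

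The 3 arrays of 6 h replicate 3, 12 h replicate 2 and 18 h replicate 3 had log2 ratios of narrow spread over all genes, with interquartile ranges of 0.0220 to 0.0480 against 0.194 to 0.333 on the other arrays. Without these arrays the means of malate synthase were 1.57, 1.07 and 0.45 at 6, 12 and 18 h. With the background refitted without spots of uneven local background they were 1.53, 1.14 and 0.45 on all 12 arrays. The rank of malate synthase within an array was more sensitive. Its best rank at each time point, 62, 74 and 517, was on a narrow array, and on the other arrays it ranged from 76 to 127 at 6 h, from 299 to 667 at 12 h and from 758 to 5951 at 18 h.

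Genes of other tissues were followed with marker lists, since dissected midguts can carry fat body and muscle. All 14 fat body markers (hexamerins, arylphorins, larval serum proteins, apolipophorins and vitellogenin), all 5 muscle markers and all 15 midgut markers gave signal well above background at every time point. The midgut markers include digestive enzymes that the tissue is known for, so RNA of the labelled tissue was present. Their summed level in untreated midguts was 456308 to 512290 intensity units at 6 h, 461643 to 486539 at 12 h and 535726 to 657483 at 18 h. In toxin-treated midguts it was 405871 to 465392, 438186 to 472270 and 382299 to 490026. Some of these markers were saturated in both channels on all arrays of a time point, which limits their sums and ratios. The summed level of the fat body markers in untreated midguts was 46808 to 61001 intensity units at 6 h, 126671 to 219715 at 12 h and 196840 to 250117 at 18 h. In toxin-treated midguts it was 21815 to 223072, 47819 to 339026 and 66270 to 204089. A gene was called where limma gave an adjusted p under 0.05 (Benjamini-Hochberg over all genes) and a log2 ratio of at least 0.75 in size, which held for 1.84% of genes in the higher and 2.28% in the lower direction at 6 h, for 3.16% and 4.3% at 12 h, and for 1.77% and 1.24% at 18 h. Of the 14 fat body markers, 0, 1 and 1 were called lower at 6, 12 and 18 h and 0 higher, and with the refitted background 1, 2 and 5 were called lower. Of the 15 midgut markers, 1, 2 and 2 were called lower and 0, 1 and 0 higher, with a median log2 ratio of -0.21, -0.10 and -0.63.

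Replicates 1 and 2 were the highest of their time point in both the malate synthase ratio and the fat body markers. The lowest replicate was not the same in both at any time point, and their association was not measured. The median log2 ratio of the 14 fat body markers was 2.15, 2.14, -0.10 and -1.67 on replicates 1 to 4 of 6 h, where malate synthase was higher on replicates 1 and 2 than on 3 and 4. At 12 h it was 1.20, -0.47, -2.95 and -1.53, and malate synthase was again higher on replicates 1 and 2. At 18 h it was -2.01, -0.49, -2.40 and -2.27, and replicate 2 had the highest value of both. Malate synthase was chosen on these ratios and was above 0 on all 12 arrays after loess. This holds of necessity for the 9 arrays where the median fat body marker was lower, among them 6 h replicate 4 with 1.39. On the Aquantile scale the summed fat body level of untreated midguts at 12 h lay above that at 6 h on all arrays. The untreated malate synthase level overlapped between these time points on that scale and with loess alone. It did not overlap in the scanner's median signals without normalization. At 18 h both untreated levels lay above those of 6 h on the Aquantile scale without overlap. The fat body sum was 196840 to 250117 against 46808 to 61001, and malate synthase 13.09 to 13.12 against 12.49 to 12.61. The part of fat body RNA in the malate synthase values was not tested. The summed muscle marker level stayed between 9950 and 11668 in untreated and between 10217 and 17082 in toxin-treated midguts, with 0 of 5 called at any time point.

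The genes whose ratios were most like those of malate synthase were found by the root mean square difference of the log2 ratios over the 12 arrays, among 15387 genes with a spot well above background on all of them. For the median gene this difference was 1.15 on the log2 scale. The closest gene was CPIJ008308, a conserved hypothetical protein, at 0.255, with mean log2 ratios of 1.66, 1.35 and 0.49 at 6, 12 and 18 h. It was followed by CPIJ007311 at 0.284, CPIJ015442 at 0.285, CPIJ003102 at 0.288, CPIJ018126 at 0.294 and CPIJ003708 at 0.296. These are conserved hypothetical proteins apart from CPIJ003102, which has no description in the tables used here, and CPIJ015442 reached saturation on at least 1 array.

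CPIJ007054, an alpha-tocopherol transfer protein, was 0.298 away, with mean log2 ratios of 1.29, 1.23 and 0.54. CPIJ012271, a protein with WD and tetratricopeptide repeats, was 0.306 away, and its mean was highest at 12 h, with 1.15, 1.31 and 0.55. These genes were chosen for their likeness, so the match is a description. After the refitted background, 4 of the 8 were still among the closest 8 and the farthest had rank 14.

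**Figure D3:**
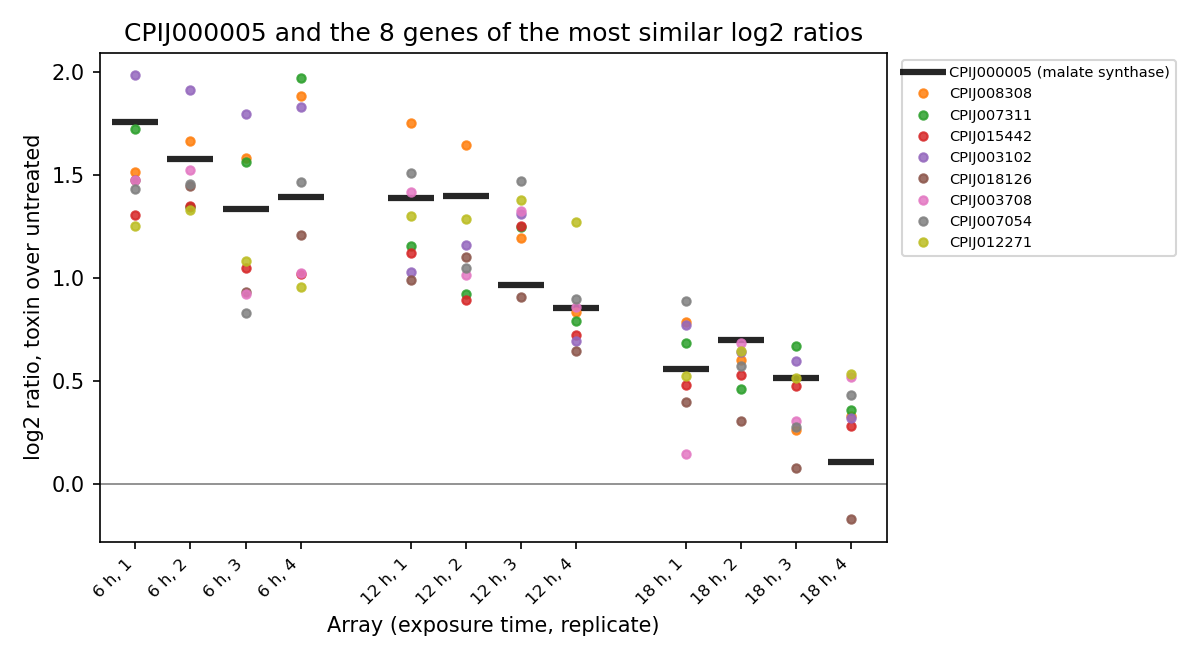
Log2 ratio of toxin over untreated (y axis) on each of the 12 arrays (x axis) for malate synthase (black bars) and for the 8 genes with the smallest root mean square difference from it (coloured points). The bars run from 1.75 on 6 h replicate 1 to 0.10 on 18 h replicate 4.

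Of the 363 genes called higher at 6 h, 160 (44.1%) had means that fell in the order 6, 12 and 18 h. They were selected for being high at 6 h, so this is a description, and lower later values are partly fixed by the choice. Of the 363 genes, 129 were called higher at all 3 time points, 138 at 6 and 12 h and 85 at 6 h only.

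The enzymes around malate synthase were followed as 49 genes in 5 lists, taken by name from the study's table of regulated genes. The study chose that table on these samples, so the direction of a list is not independent evidence. Of the 49 genes, 5 were called lower and 3 higher at 6 h, where 2.28% and 1.84% of all genes were called. At 12 h the counts were 7 lower and 2 higher, with 4.3% and 3.16% of all genes called. At 18 h they were 3 lower and 0 higher, with 1.24% and 1.77% of all genes called. The median log2 ratio of the 49 genes was -0.05, -0.29 and -0.22, against medians over all genes of 0.01, 0.00 and 0.00. Malate synthase lay above 48 of them at 6 h and at 12 h and above 45 at 18 h. With the refitted background 13 genes were called lower at 12 h and 5 at 18 h.

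**Figure D4:**
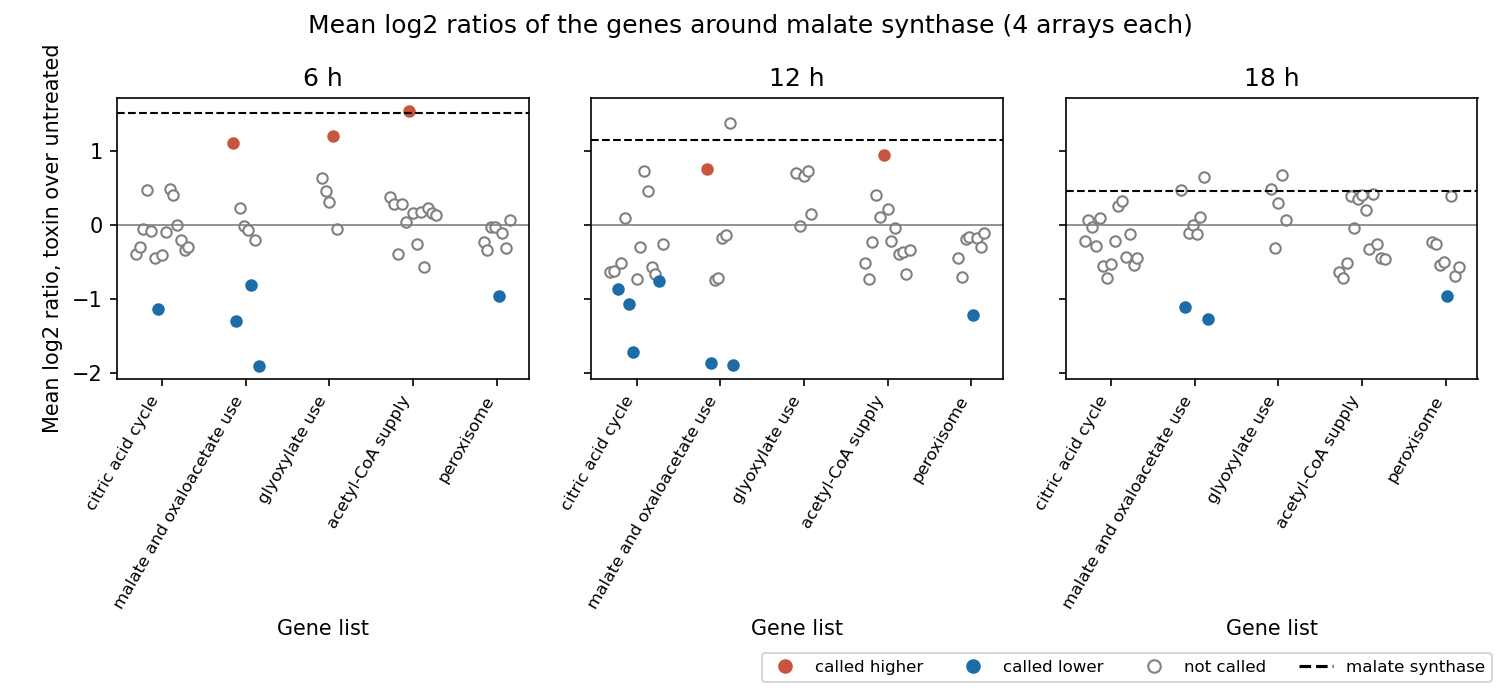
Mean log2 ratio of toxin over untreated (y axis, 4 arrays each) for the 49 genes of the 5 lists (x axis) at 6, 12 and 18 h. Red points were called higher, blue points called lower and open points not called, and the dashed line marks malate synthase at 1.51, 1.15 and 0.47. Only 1 gene lies above the dashed line at 6 h and 1 at 12 h.

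The supply of acetyl-CoA, a substrate of malate synthase, held the gene with the largest ratio of the 49 at 6 h. Acetyl-coenzyme A synthetase (CPIJ000426), which makes acetyl-CoA from acetate, had log2 ratios of 1.82, 1.81, 0.79 and 1.75 on the 4 arrays of 6 h. It had 1.15, 0.65, 1.23 and 0.78 at 12 h and 0.71, 0.39, 0.15 and 0.20 at 18 h. As with malate synthase, all arrays of 18 h lay below all arrays of 6 h.

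The mean of CPIJ000426 was 1.55 ± 0.50 at 6 h (limma adjusted p = 9.83e-05), 0.95 ± 0.28 at 12 h (adjusted p = 0.00157) and 0.36 ± 0.25 at 18 h (adjusted p = 0.169), so it was called higher at 6 and 12 h. The difference between 18 and 6 h was -1.19 (adjusted p = 0.0125). CPIJ000426 was named for the largest ratio of its list, reached at 6 h, so these p-values are not independent of that choice. Differences of at least 0.75 in size with an adjusted p under 0.05 were found in 2.81% of all genes over this interval, in 0.921% from 6 to 12 h and in 2.32% from 12 to 18 h. Its untreated level was 9.33 ± 0.31, 9.74 ± 0.13 and 10.42 ± 0.09 on the log2 intensity scale, and its toxin level was 10.87 ± 0.21, 10.69 ± 0.19 and 10.78 ± 0.17. After loess and Aquantile, the only scaling computed for this gene, most of the narrowing of this ratio was in the untreated channel. The other 12 genes of acetyl-CoA supply, among them acyl-CoA oxidases, thiolases and carnitine acyltransferases, had 0 calls at any time point. Of all genes, 1.24% to 4.3% were called per direction and time point. Acyl-CoA oxidase CPIJ003061, which starts the peroxisomal breakdown of fatty acids, had log2 ratios of 0.28 ± 0.08, -0.73 ± 0.35 and -0.71 ± 0.44, and was not called at any time point. With the refitted background it was called lower at 12 and 18 h, with -0.79 at both. Its change from 6 to 12 h was -1.01 (adjusted p = 0.0347) and from 6 to 18 h -0.99 (adjusted p = 0.0181). CPIJ003061 was likewise named for the size of its ratio.

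Of the 5 genes that use glyoxylate, the other substrate, 1 was called, as higher at 6 h, where 1.84% of all genes were. Alanine-glyoxylate aminotransferase CPIJ006409, which turns glyoxylate into glycine, had 1.77, 1.12, 0.65 and 1.30 on the arrays of 6 h, a mean of 1.21 ± 0.46 (limma adjusted p = 0.00122). At 12 and 18 h its means of 0.74 ± 0.46 and 0.68 ± 0.28 were below the threshold of size (adjusted p = 0.0127 and 0.0341). The other aminotransferases, CPIJ005222 and CPIJ013562, had 0.31 ± 0.61 and -0.06 ± 0.51 at 6 h and were not called. Of the glyoxylate reductases, which turn glyoxylate into glycolate, CPIJ001195 had 0.64 ± 0.18, 0.71 ± 0.22 and 0.49 ± 0.25 and was not called. CPIJ015671 had 0.46 ± 0.08, -0.01 ± 0.21 and -0.31 ± 0.14, and its change from 6 to 18 h was -0.77 (adjusted p = 0.00123).

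The genes that use malate and oxaloacetate moved apart. Malic enzyme, which turns malate into pyruvate, is listed as CPIJ009607 and CPIJ012341, and these went in opposite directions. CPIJ009607 had log2 ratios of 0.89, 0.98, 1.21 and 1.35 on the arrays of 6 h, whereas CPIJ012341 had -1.35, -1.49, -1.25 and -1.11. The groups of 4 arrays did not overlap.

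CPIJ009607 was called higher at 6 h (1.11 ± 0.21, limma adjusted p = 0.00155) and at 12 h (0.76 ± 0.47, adjusted p = 0.00832), the latter close to the threshold and lost with the refitted background, and had 0.48 ± 0.44 at 18 h (adjusted p = 0.096). CPIJ012341 was called lower throughout, with -1.30 ± 0.16 (adjusted p = 5.63e-05), -1.87 ± 0.35 (adjusted p = 2.72e-06) and -1.11 ± 0.29 (adjusted p = 0.000296).

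Phosphoenolpyruvate carboxykinase, which draws oxaloacetate into the making of sugar, is listed as 3 genes. CPIJ010518 was called lower at all time points, with -1.90 ± 0.99 (adjusted p = 0.00185), -1.88 ± 0.51 (adjusted p = 0.0012) and -1.27 ± 0.42 (adjusted p = 0.0222). CPIJ010515 was called lower at 6 h only, with -0.80 ± 0.41 (adjusted p = 0.0157). CPIJ010516 was not called, with -0.20 ± 1.08, 1.38 ± 1.78 and 0.65 ± 0.94. Its means of 6 and 18 h were below the threshold of size, and at 12 h its arrays varied widely (limma adjusted p = 0.102). It is the gene that lies above malate synthase at 12 h. Whether cross-hybridisation between these 3 genes occurs was not tested. Pyruvate carboxylase (CPIJ002514), which makes oxaloacetate, had -0.06 ± 0.13, -0.17 ± 0.06 and -0.12 ± 0.10 and was not called.

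The mitochondrial carriers of 2-oxoglutarate and malate, CPIJ006475 and CPIJ016780, had -0.74 ± 0.16 and -0.72 ± 0.12 at 12 h, just under the threshold of size, and values from -0.10 to 0.24 at 6 and 18 h. With the refitted background both were called lower at 12 h, with -0.79 each. The change of CPIJ006475 from 6 to 12 h was -0.98 (adjusted p = 0.0145).

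The 15 genes of the citric acid cycle had 1, 4 and 0 called lower at 6, 12 and 18 h and 0 called higher. Of all genes, 2.28%, 4.3% and 1.24% were called lower and 1.84%, 3.16% and 1.77% higher. The median log2 ratio of the list was -0.19, -0.61 and -0.22. The gene with the lowest ratio of this list was the alpha subunit of succinyl-CoA ligase (CPIJ018673), which makes succinate from succinyl-CoA. It had -1.15, -1.36, -1.27 and -0.77 on the arrays of 6 h and -1.64, -1.58, -1.79 and -1.83 on those of 12 h. Its means were -1.14 ± 0.26 (limma adjusted p = 7.36e-06), -1.71 ± 0.12 (adjusted p = 3.43e-07) and -0.72 ± 0.12 (adjusted p = 0.000296), the last below the threshold of size. With the refitted background it was called lower at 18 h too, with -0.78.

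At 12 h the beta chain of the same ligase (CPIJ005779) was called lower with -1.06 ± 0.31 (adjusted p = 7.59e-05). Isocitrate dehydrogenase CPIJ002859, which competes with isocitrate lyase for isocitrate where that enzyme exists, was called lower at 12 h with -0.87 ± 0.33 (adjusted p = 0.000344). A mitochondrial malate dehydrogenase (CPIJ016467) was called lower with -0.75 ± 0.18 (adjusted p = 2.73e-05).

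The enzymes of the cycle that share a substrate or product with malate synthase were mixed in direction. Citrate synthase, which like malate synthase condenses acetyl-CoA with a keto acid, had -0.39 ± 0.12, -0.63 ± 0.13 and -0.22 ± 0.07 for CPIJ010291 and -0.29 ± 0.11, -0.61 ± 0.28 and 0.08 ± 0.21 for CPIJ019861, with no call. Malate dehydrogenase, which oxidises malate to oxaloacetate, is listed as 8 genes, of which 6 were below 0 and 2 above 0 on all 4 arrays at 12 h and again at 18 h. The 6 include CPIJ008366, whose untreated channel was saturated throughout at 12 h, so its direction there is uncertain. Above 0 were the following. CPIJ002460 had 0.48 ± 0.20, 0.73 ± 0.19 and 0.26 ± 0.17 and CPIJ016732 had 0.41 ± 0.14, 0.46 ± 0.08 and 0.33 ± 0.13, both by less than the threshold. Of those below 0 at 12 h, besides CPIJ016467, CPIJ008123 had -0.40 ± 0.25, -0.73 ± 0.23 and -0.53 ± 0.22 and CPIJ018614 had -0.19 ± 0.32, -0.66 ± 0.29 and -0.11 ± 0.10. CPIJ006674 had 0.01 ± 0.18, -0.57 ± 0.19 and -0.42 ± 0.05 and CPIJ012768 had -0.09 ± 0.11, -0.29 ± 0.08 and -0.22 ± 0.11. CPIJ008366 had -0.44 ± 0.12 at 18 h and was saturated throughout a channel at 6 and 12 h, so no value is given there. None of these was called, although CPIJ008123 and CPIJ018614 were called lower at 12 h with the refitted background. The first component of 2-oxoglutarate dehydrogenase (CPIJ017085), a carbon-losing step of the cycle, had -0.08 ± 0.17, 0.09 ± 0.17 and 0.10 ± 0.14 and was not called. Spots of CPIJ019861 and CPIJ016732 reached saturation on at least 1 array.

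Of the 8 peroxisome genes 1 was called, and it was lower throughout. Of all genes, 2.28%, 4.3% and 1.24% were called lower at 6, 12 and 18 h. The peroxisomal membrane protein pmp34 (CPIJ007010) had -0.96 ± 0.27 (limma adjusted p = 0.00385), -1.22 ± 0.51 (adjusted p = 0.000528) and -0.96 ± 0.35 (adjusted p = 0.00546). Peroxisome assembly factor 1 (CPIJ005135) had -0.34 ± 0.29, -0.70 ± 0.24 and -0.25 ± 0.09 and was not called, except as lower at 12 h with the refitted background. Both genes were named for the size of their ratios within the list, so the p-values are not independent of that choice. The median of the list was -0.17, -0.24 and -0.52.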

How the data were processed

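Members, lists and tests were chosen with earlier results of these data known. The deposited intensity columns hold pixel medians for the spot and for its surroundings, written without normalization by Agilent Feature Extraction 11.5.1.1. Per the file headers, a log10 column holds the software's own dye-normalized ratio of red over green. The deposited log2 values are ratios of toxin over control, and normexp with an offset of 16 followed by loess gave them to within 4.98e-08. The deposited files also hold software marks (other) for saturation, outlying pixels, uneven background and signal above background.

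Here normexp used an offset of 50. Of 45220 spots, 1417 controls were removed before loess within arrays, outlying spots were set to missing and spots were averaged by gene. Means of the 3 time points were estimated from 12 arrays with limma 3.58.1 in R 4.3.3 (lmFit, eBayes), with Benjamini-Hochberg adjustment over all 19751 genes. The pipeline was tested on simulated data. Genes that could be named were malate synthase, those of the lists on the citric acid cycle and on malate and glyoxylate use, the 2 genes with the largest change in each of the other lists, and the 8 genes nearest to malate synthase. Between 78.1% and 88.9% of spots on an array were well above background, and precision is limited by the number of arrays. The arrays were not treated as paired by replicate number. Arrays of the same number deviated together (r over 0.1) in 4 of 12 comparisons, with r from -0.24 to 0.42. These values cannot show whether the samples were paired. No column of unmapped values was present. Alternatives covered background, normalization, probes, fits and arrays left out.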

Additional observations from a re-analysis of the deposited data

Results flagged for a closer look

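No malate synthase value stood far from the others of its time point. Of 141 sets of 4 arrays examined, 6 had 1 array far from the other 3 by Dixon's criterion, which chance alone flags in about 1 in 20 sets. Isocitrate dehydrogenase CPIJ002859 was at -1.35 and malic enzyme CPIJ012341 at -2.40 on 12 h replicate 4, against -0.74 to -0.67 and -1.74 to -1.66 on the other arrays. Malate dehydrogenase CPIJ006674 was at 0.28 on 6 h replicate 4, against -0.11 to -0.04. CPIJ012271 was at 0.65 on 18 h replicate 2, against 0.51 to 0.53. On 6 h replicate 3, an array of narrow log2 ratios, alpha-tocopherol transfer protein CPIJ007054 was at 0.83 and acetyl-coenzyme A synthetase CPIJ000426 at 0.79, against 1.43 to 1.46 and 1.75 to 1.82.

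Of 96 differences between time points in 32 pathway genes, 11 in 8 genes passed an adjusted p under 0.05 (limma, Benjamini-Hochberg over all genes) with a size of at least 0.75 in log2 ratio. Of the 32 genes, 4 passed from 6 to 12 h (0.921% of all genes), 3 from 12 to 18 h (2.32%) and 4 from 6 to 18 h (2.81%). CPIJ000426 and CPIJ003061, which supply 3 of the 11, had been picked for the largest changes in their list. Isocitrate dehydrogenase CPIJ002859 changed by -0.82 from 6 to 12 h (adjusted p = 0.0333) and by 0.83 from 12 to 18 h (adjusted p = 0.0162). Isocitrate dehydrogenase CPIJ003304 changed by -0.98 from 6 to 12 h (adjusted p = 0.0292) and by -0.76 from 6 to 18 h (adjusted p = 0.044). From 12 to 18 h, succinyl-CoA ligase alpha CPIJ018673 changed by 0.99 (adjusted p = 0.000923) and malic enzyme CPIJ012341 by 0.76 (adjusted p = 0.0323). The malate carrier CPIJ006475 changed by -0.98 from 6 to 12 h, glyoxylate reductase CPIJ015671 by -0.77 and acetyl-coenzyme A synthetase CPIJ000426 by -1.19 from 6 to 18 h, and acyl-CoA oxidase CPIJ003061 by -1.01 from 6 to 12 h and -0.99 from 6 to 18 h.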

How the results depend on the processing

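The mean log2 ratio of malate synthase stayed above 0 at every time point under every setting tried. Over settings other than left-out arrays and single probes, its mean log2 ratio lay between 1.44 and 2.16 at 6 h, between 1.07 and 1.71 at 12 h and between 0.37 and 0.91 at 18 h, and the difference between 18 and 6 h between -1.26 and -0.90. Scale normalization, which stretches the 3 narrow arrays, gave the highest values of 2.16, 1.71 and 0.91, and median centring gave 1.78 at 6 h and 0.89 at 18 h. Probe bCPdoubCPIJ000005 alone gave 1.30 at 6 h. The untreated level differed by 0.47 between 18 and 6 h with loess alone and by 0.39 in signals without normalization. With 1 array left out, the ratio lay between 1.43 and 1.57 at 6 h, 1.07 and 1.25 at 12 h, 0.39 and 0.59 at 18 h, and the difference between -1.12 and -0.92. The software's own ratio on 18 h replicate 4 was -0.01. With the replicate number as a block, the ratios were 1.51, 1.15 and 0.47, and the same 8, 9 and 3 pathway genes were called at 6, 12 and 18 h. Same-numbered arrays correlated between -0.24 and 0.42 in their deviations.

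The counts of the 49 pathway genes were less stable than malate synthase, and the calls over all 19751 genes moved between settings too. At 12 h, 849 of all genes were called lower in the main fit, 1412 with plain subtraction and 1164 with no background correction. The refitted background gave 1088, the software's ratio 1676 and scale normalization 243. At 18 h, 350 of all genes were called higher in the main fit and 1376 with median centring. At 12 h, 13 were called lower with plain subtraction, no background correction or the refitted background, 11 with the software's ratio, 14 without the 3 narrow arrays and 1 with scale normalization. Those called higher at 12 h numbered 4 with subtraction, with the brightest probe or without the narrow arrays, 5 with the software's ratio, 6 with median centring, 1 with no correction, the refitted background or separate fits, and 0 with scale normalization. At 18 h, 6 were called lower with subtraction, 5 with no correction or the refit, 9 with the software's ratio and 0 with median centring or scale normalization, and median centring called 6 higher. At 6 h, median centring called 3 lower and 6 higher, and scale normalization 0 and 1. Without a fold threshold, 14, 25 and 21 genes were called lower and 8, 6 and 5 higher at 6, 12 and 18 h. With 1 array left out, 6 to 14 were lower and 2 to 4 higher at 12 h, and 2 to 5 lower at 18 h. The extremes came without 12 h replicate 2 (14 lower, 4 higher), 12 h replicate 4 (4 higher) and 18 h replicate 2 (5 lower). Over all genes, 55.4%, 57.6% and 41.2% of calls were lower at 6, 12 and 18 h, against 23.8%, 30.8% and 7.34% with median centring and 69.9%, 74.8% and 49.5% with scale normalization. The causes of these differences were not tested.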
